A study of Mus musculus with 135 samples.

Results

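The oocytes described here are 23 single ovulated mouse eggs labelled as Tet2 knockouts, 7 from old and 16 from young females. The series holds 94 oocyte libraries with a count column. The 23 were chosen by their labels, with earlier results of these data known. The old Tet2KO group (labelled Old_Tet2-/-, 10 to 12 months) holds oocytes S1612 to S1618, and the young Tet2KO group (Young_Tet2-/-, 2 to 4 months) holds T2131 to T2138 and T2141 to T2148. All carry the strain label C57BL6/129, as do the groups used for comparison. These are old Tet1KO (6 oocytes in 2 sets, 1 of them a single oocyte) and young Tet1KO (15 oocytes in 2 sets), labelled as Tet1 knockouts, and old WT (12 oocytes in 2 sets) and young WT (38 oocytes in 4 sets), at the same ages. The labels describe the genotype as a knockout, without the allele, the deleted part or the littermate status, and they tie no oocyte to a female. Oocytes whose titles share a stem were summed into a set, and the set was the replicate. Old Tet2KO is 1 set (S161) and young Tet2KO is 2 sets (T213 with 8 oocytes, T214 with 8), so age and the identity of set S161 cannot be told apart. With 1 set against 2, no exact permutation of the sets can give a p under 0.333.

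TET2 is one of the enzymes that oxidise 5-methylcytosine in DNA, a first step in the removal of methyl marks from CpG sites. Metaphase II oocytes are transcriptionally silent and carry maternal mRNA made during growth, so their RNA records growth, storage and decay rather than current transcription. In females of advanced age, oocytes are known for weakened cohesin, errors of chromosome segregation and changes in mitochondria, and these groups of genes are followed below. Fewer RNA molecules of 1 kind and more of all others cannot be told apart in values scaled to the library total.

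Oocyte RNA was the main content of every library. None of the 11 oocyte markers was at 0 in any of the 23 oocytes, and their summed level was 22810 to 29780 CPM (counts scaled to a common library total) in old and 21450 to 31370 CPM in young oocytes. Total counts were 2510427 to 3633422 per old oocyte and 3303999 to 6374555 per young oocyte, and 16197 to 17789 genes had a count in old oocytes against 16839 to 18414 in young ones. No pair of libraries within a set held identical counts. Of the 25 granulosa and cumulus markers, 16 to 18 were at 0 in old and 16 to 19 in young oocytes. Their summed level, 1257 to 1364 CPM in old and 968 to 1380 CPM in young oocytes, was mostly Serpine2. Erythrocyte markers summed to at most 0.653 CPM in old and 1.88 CPM in young oocytes.

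One old oocyte, S1616, carried transcripts of leukocytes. Its 33 leukocyte and macrophage markers summed to 2985 CPM, against 84.8 to 142 CPM in the other 6 old oocytes and 78.3 to 111 CPM in the 16 young oocytes. A count was found for 28 of the 33 markers in S1616. Lyz2, the lysozyme of macrophages, was at 936 CPM in S1616, at most 14.6 CPM in the other old oocytes and at most 0.605 CPM in young oocytes. Cd74, the invariant chain of antigen presentation, was at 319 CPM in S1616, at most 13.8 CPM in the other old oocytes and at most 0.261 CPM in young oocytes. The protease Ctss, the Fc receptor subunit Fcer1g and the complement subunit C1qc stood at 255, 136 and 131 CPM in S1616 and at no more than 0.805 CPM in any young oocyte. The oocyte S1615 held a smaller amount: 23 of the 33 markers had a count there, and it is the source of the 14.6 CPM of Lyz2. Part of the summed level in all oocytes comes from Lcp1, an actin-bundling protein that was at 38.8 to 120 CPM in old and 41.1 to 75.2 CPM in young oocytes. Results below are also given without S1616 where that changes a call or a direction or moves a value widely.

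**Figure D1:**
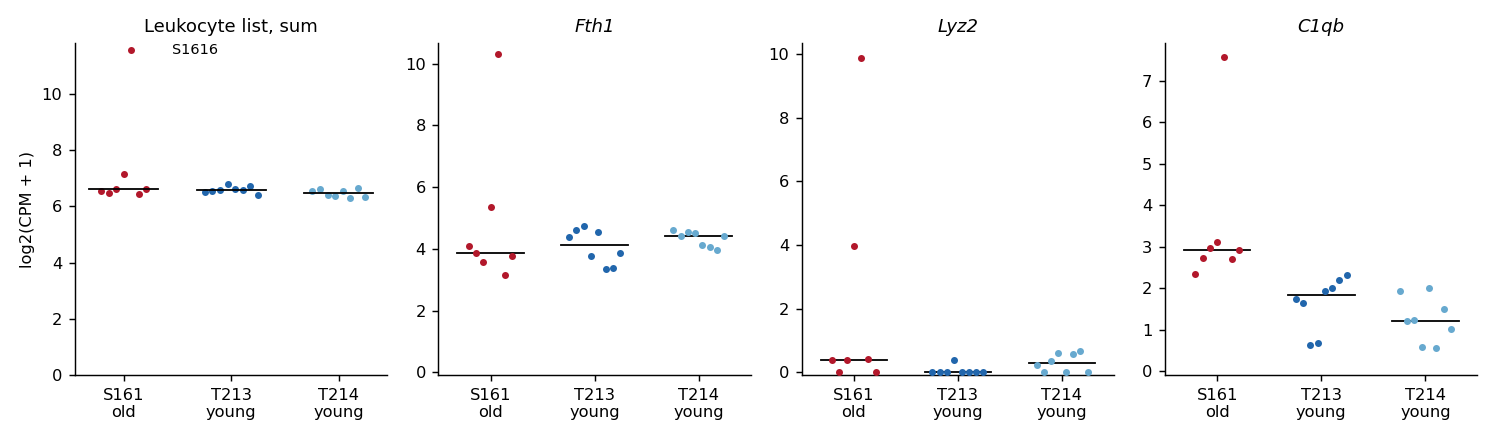
Levels per oocyte, on a log2(CPM + 1) axis, of the summed leukocyte and macrophage markers and of Fth1, Lyz2 and C1qb; each point is 1 oocyte of set S161 (old) or of T213 and T214 (young), and bars are set medians. S1616 stands at 2985 CPM for the list and at 1280 CPM for Fth1, above the other 22 oocytes in every panel.

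No difference in the Tet genes was detected between old and young Tet2KO oocytes. Tet3, the TET enzyme most abundant in these eggs, was at 560 to 741 CPM in old oocytes (median 657) and 470 to 834 CPM in young oocytes (median 664). Its log2 change, old minus young, was -0.04 with a standard error (SE) of 0.24. Tet1 was at 3.68 CPM in S161, against 4.04 CPM in T213 and 3.85 CPM in T214. Tet2 reads were present in both knockout groups, with 28 counts in the 7 old and 84 counts in the 16 young oocytes. Relative to library size, the old level was 102% of the young level, with a 95% exact interval of 64.1% to 158% that covers counting error only. S1616 supplied 16 of the 28 old counts, and the other old oocytes held 0 to 1.32 CPM. Without S1616 the old level was 51.4% of the young level (95% exact interval 25.5% to 94.5%, counting error only), and the log2 change was -0.92 (edgeR adjusted p = 1). The 6 WT sets held 1.53 to 4.76 CPM. The counts are summed over the whole gene and the deleted part is not stated, so reads outside it would be counted, and these values do not check the genotype.

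The main test took genes with a CPM of at least 1 in at least 2 sets. A gene that reached this level in S161 alone was thus not tested, as with Cd74, Ctss, Fcer1g and C1qc. A single gene of 14418 tested passed in the edgeR quasi-likelihood test on all 13 oocyte sets, which is 0.00694% of those tested. It was Fth1, the heavy chain of the iron store ferritin, which was 203 CPM in S161, against 17.3 CPM in T213 and 19.7 CPM in T214 (log2 change 3.47, SE 0.31, Benjamini-Hochberg adjusted p = 0.00479). Fth1 was at 1280 CPM in S1616, at 7.83 to 39.6 CPM in the other 6 old oocytes and at 9.22 to 25.6 CPM in young oocytes. The other old oocytes thus overlapped the young range. Without S1616 the log2 change was -0.05 (edgeR adjusted p = 1), and no gene of 14401 passed in edgeR, with 366 at an unadjusted p under 0.05. The edgeR adjusted p of Fth1 was 0.257 without set T213 and 0.106 without set T214. DESeq2 called 20 genes with S1616 and 8 without it, and limma called 0 with it. The DESeq2 calls lost without S1616 were Fth1, Apoe, C1qb, Ccl6, Cstb, Ctsa, Ctsb, Cxcl13, Fcgr3, H2-Aa, Tmem176b and Tmsb4x. Those kept were Pnpla3, Gm49513, Ddr2, Tmem242, Rpe, Rassf4, Prr18 and Gm5619. Fth1 lies on chromosome 19 (chr19:9982703-9985092, plus strand, mm10), and the leukocyte list was high in the same oocyte; its part in the Fth1 result was not tested.

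Pnpla3, a lipid droplet protein of the patatin-like phospholipase family, showed the largest separation of the oocytes. It was at 0.924 to 3.64 CPM in old oocytes (median 2.39) and at 98.2 to 171 CPM in young oocytes (median 126). No old oocyte came near any young one, and S1616 held the lowest value. By set, Pnpla3 was at 2.13 CPM in S161, against 126 CPM in T213 and 129 CPM in T214. In the test on all 13 sets the log2 change of -5.89 (SE 0.82) missed the threshold, with an edgeR adjusted p of 0.0732. When only the 7 sets named like the Tet2KO sets and counted in the same table were fitted, 3 of 13793 genes passed (0.0218%), and Pnpla3 was among them (log2 change -5.88, SE 0.30, edgeR adjusted p = 0.00407). It also passed there without S1616 (edgeR adjusted p = 0.00463). The other 2 were Fth1, which did not pass there without S1616, and Gm49513, a gene model that overlaps Pnpla3 on the same strand. Gm49513 was at 0.616 to 3.97 CPM in old and 51 to 85.3 CPM in young oocytes. Reads in an overlap were counted for both genes, so Pnpla3 (chr15:84167837-84187236) and Gm49513 (chr15:84181914-84195881) are not separate observations.

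The levels of Pnpla3 in the other genotypes put the old Tet2KO set beside WT and the young Tet2KO sets beside Tet1KO. The 6 WT sets ranged from 1.42 to 2.04 CPM, whether old (1.57 and 1.42 CPM) or young (1.71, 2.04, 2.02 and 1.92 CPM). The 4 Tet1KO sets were at 185 and 123 CPM in old and at 117 and 19.5 CPM in young females. S161 was thus just above the WT sets, and T213 and T214 lay within the Tet1KO range. These levels are a description, since Pnpla3 was singled out by its size of difference. The 250 bases before the RefSeq start of Pnpla3 (GRCm38.p6, chr15:84167566-84167815, plus strand) are shown because this gene carries the largest difference and TET enzymes act on CpG sites. They hold 11 CpG sites, in capitals, and 66.5% of the 32851 promoters in the RefSeq table hold as many or fewer. DNA methylation was not measured.
Pnpla3: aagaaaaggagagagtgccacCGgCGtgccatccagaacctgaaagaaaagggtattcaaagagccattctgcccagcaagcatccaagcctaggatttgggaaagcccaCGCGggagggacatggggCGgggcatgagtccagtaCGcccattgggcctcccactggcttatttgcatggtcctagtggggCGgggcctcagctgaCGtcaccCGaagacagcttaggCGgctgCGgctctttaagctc

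**Figure D2:**
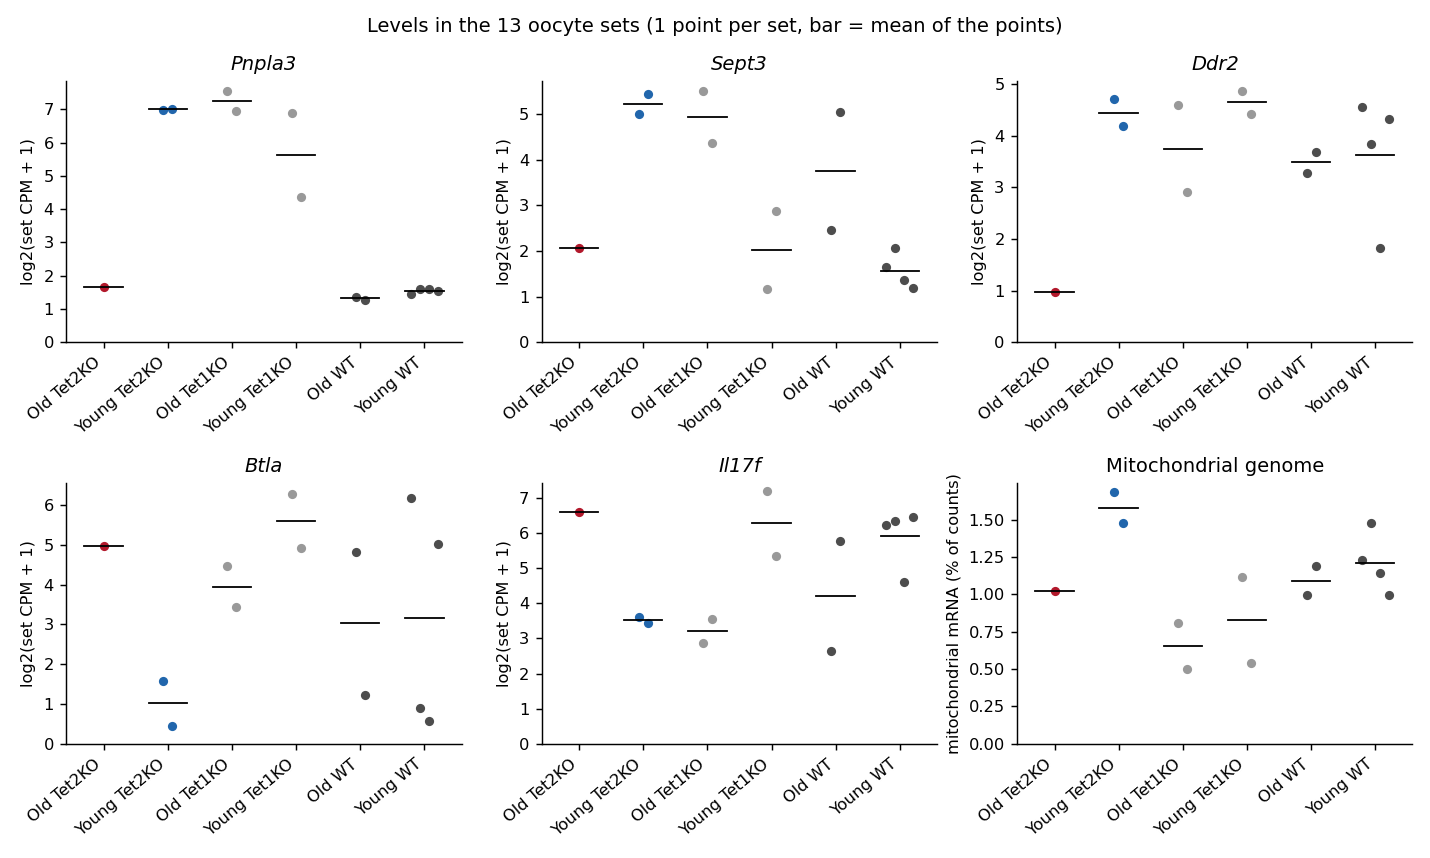
Levels in the 13 oocyte sets of the 6 groups, 1 point per set with the mean of the points as a bar, as log2(CPM + 1) for 5 genes and as a percentage of counts for the mitochondrial genome. Pnpla3 was at 2.13 CPM in the old Tet2KO set and at 126 and 129 CPM in the young Tet2KO sets, while Btla ranged from 0.495 to 71.2 CPM among the WT sets.

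Single oocytes were then compared gene by gene. A gene was counted where every oocyte of 1 group lay above every oocyte of the other, at a mean of 5 CPM or more in the higher group. This is a description without a test, because oocytes of a set are not replicates of an age. Between the 7 old and 16 young oocytes, 41 of 9211 genes were higher in old (0.445%) and 45 were lower in old (0.489%). All 86 also met the criterion without S1616, when 54 were higher and 64 lower. The same count was made between sets. S161 and T213 were separated in 222 genes (2.41%), S161 and T214 in 552 genes (5.94%), and the young sets T213 and T214 in 304 genes (3.3%). The old set was thus separated from T213 in fewer genes than the young sets were from each other, and from T214 in more, though S161 holds 1 oocyte fewer, which makes separation easier. Of the 552 genes, 391 were lower in S161 than in T214. Among 5255 genes at a mean of 20 CPM or more over the 3 sets, a difference beyond 2-fold was found for 1.64% between S161 and T213, 2.97% between S161 and T214 and 1.29% between T213 and T214. The median Pearson correlation between single oocytes, over 8865 genes on the log2(CPM + 1) scale, was 0.96 within S161, 0.942 for S161 with T213, 0.935 for S161 with T214 and 0.943 for T213 with T214.

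**Figure D3:**
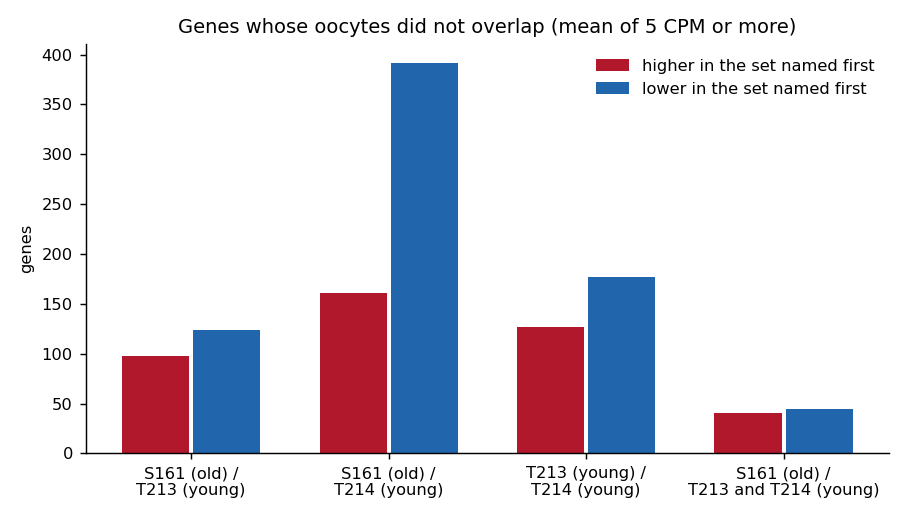
Number of genes whose oocytes did not overlap for each pair of Tet2KO sets and for the old set against both young sets, split by direction. T213 and T214, both young, were separated in 127 and 177 genes, and S161 was separated from both young sets together in 41 and 45 genes.

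Among the genes lower in old oocytes, the 8 with the largest ratio at 20 CPM or more were Pnpla3, Gm49513, Ddr2, Sept3, Trav7-6, Pcna-ps2, Rpl37rt and Dcbld2. Ddr2, a receptor tyrosine kinase for collagen, was at 0.55 to 1.99 CPM in old oocytes (median 0.662) and 7.71 to 33.3 CPM in young oocytes (median 20.7). Its level in S161, 0.953 CPM, was below all 6 WT sets, which ranged from 2.55 to 22.5 CPM. Sept3, a septin GTPase, was at 2.2 to 4.97 CPM in old oocytes (median 2.84) and 19.2 to 62 CPM in young oocytes (median 34.5). Of the WT sets, 1 old set was at 31.9 CPM, and the other old set and the 4 young sets were at 1.29 to 4.51 CPM. Dcbld2, a transmembrane receptor, was at 13.6 to 27.5 CPM in old and 70.1 to 140 CPM in young oocytes; its neighbour St3gal6, which overlaps it, was lower as well. The T cell receptor segment Trav7-6 was at 1.96 to 6.62 CPM in old and 15.4 to 54.8 CPM in young oocytes, and between 2.13 and 118 CPM in WT sets. In the 13-set edgeR test none of these 8 passed, and the adjusted p of each other than Pnpla3 and Gm49513 was 1.

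Pcna-ps2 and Rpl37rt are processed copies of Pcna and Rpl37, and reads shared between near-identical copies make their values uncertain. Pcna-ps2 was at 2.94 to 7.71 CPM in old and 30.9 to 69.3 CPM in young oocytes. Rpl37rt was at 1.38 to 53.4 CPM in old oocytes (median 4.38) and 91.7 to 190 CPM in young oocytes (median 119). Its parent gene Rpl37, a protein of the large ribosomal subunit, was also lower, at 0.826 to 13.6 CPM in old and 14.2 to 39 CPM in young oocytes. Among WT sets Rpl37rt ranged from 2.27 to 288 CPM, which is wider than the difference between the ages.

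Among the genes higher in old oocytes, those with the largest ratio at 20 CPM or more included Gm8730, Btla, C1qb, Il17f, Tmem242, Tram2 and Amer1. Btla, an inhibitory receptor of lymphocytes, was at 22.5 to 49.3 CPM in old oocytes (median 29.2) and 0 to 5.53 CPM in young oocytes (median 0.91). The old oocyte with most Btla was S1617, and S1616 was at 23.4 CPM. Il17f, a cytokine of lymphocytes, was at 67.5 to 143 CPM in old oocytes (median 82.1) and 5.12 to 15.6 CPM in young oocytes (median 10.7), with S1616 at 74.9 CPM. Both were thus within the range of the other old oocytes in S1616. WT sets spread over 0.495 to 71.2 CPM for Btla and over 5.29 to 87.1 CPM for Il17f. C1qb, a complement subunit made by macrophages, was at 188 CPM in S1616, 4.11 to 7.71 CPM in the other old oocytes and 0.48 to 4.01 CPM in young oocytes. Its lowest old oocyte lay just above the highest young one, and its log2 change was 4.05 (SE 0.68) with S1616 and 1.65 (SE 0.69) without it. C1qb met the mean of 20 CPM, and so its place among these genes, through S1616 alone.

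Of these 7 genes, C1qb alone was on the leukocyte list. Tmem242, a transmembrane protein, was at 20.9 to 57.8 CPM in old oocytes (median 41.6) and 2.07 to 7.92 CPM in young oocytes (median 5.69). As a set, S161 was at 41.8 CPM for Tmem242, above the 6 WT sets, which held 4.99 to 24.4 CPM. For this gene 1 old Tet1KO set was higher still, at 64.95 CPM, and 1 young Tet1KO set was at 36.82 CPM. The other old and the other young Tet1KO set lay within the WT range. A Tmem242 level above WT was thus not particular to old Tet2KO. Amer1, a regulator of Wnt signalling, was at 17.3 to 28.9 CPM in old and 1.54 to 12 CPM in young oocytes. Tram2, a protein of the endoplasmic reticulum translocation site, was at 11.4 to 42.7 CPM in old and 2.4 to 8.94 CPM in young oocytes. The predicted gene Gm8730 was at 17.1 to 50.8 CPM in old and 0.275 to 1.58 CPM in young oocytes. None of the 7 passed in the 13-set edgeR test, with adjusted p of 0.179 for C1qb, 0.55 for Tmem242, 0.993 for Gm8730 and 1 for the others.

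The 250 bases before the RefSeq start of Btla (GRCm38.p6, chr16:45224087-45224336, plus strand) are shown as those of the gene with the largest ratio in the other direction, at a mean of 20 CPM or more, that has an entry in the RefSeq table. They hold 4 CpG sites, in capitals, and 44.4% of promoters hold as many or fewer.
Btla: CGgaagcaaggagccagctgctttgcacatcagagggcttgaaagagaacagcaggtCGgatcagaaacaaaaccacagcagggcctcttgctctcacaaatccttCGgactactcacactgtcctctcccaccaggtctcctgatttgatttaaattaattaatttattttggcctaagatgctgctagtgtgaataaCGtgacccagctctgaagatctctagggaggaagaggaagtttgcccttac

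**Figure D4:**
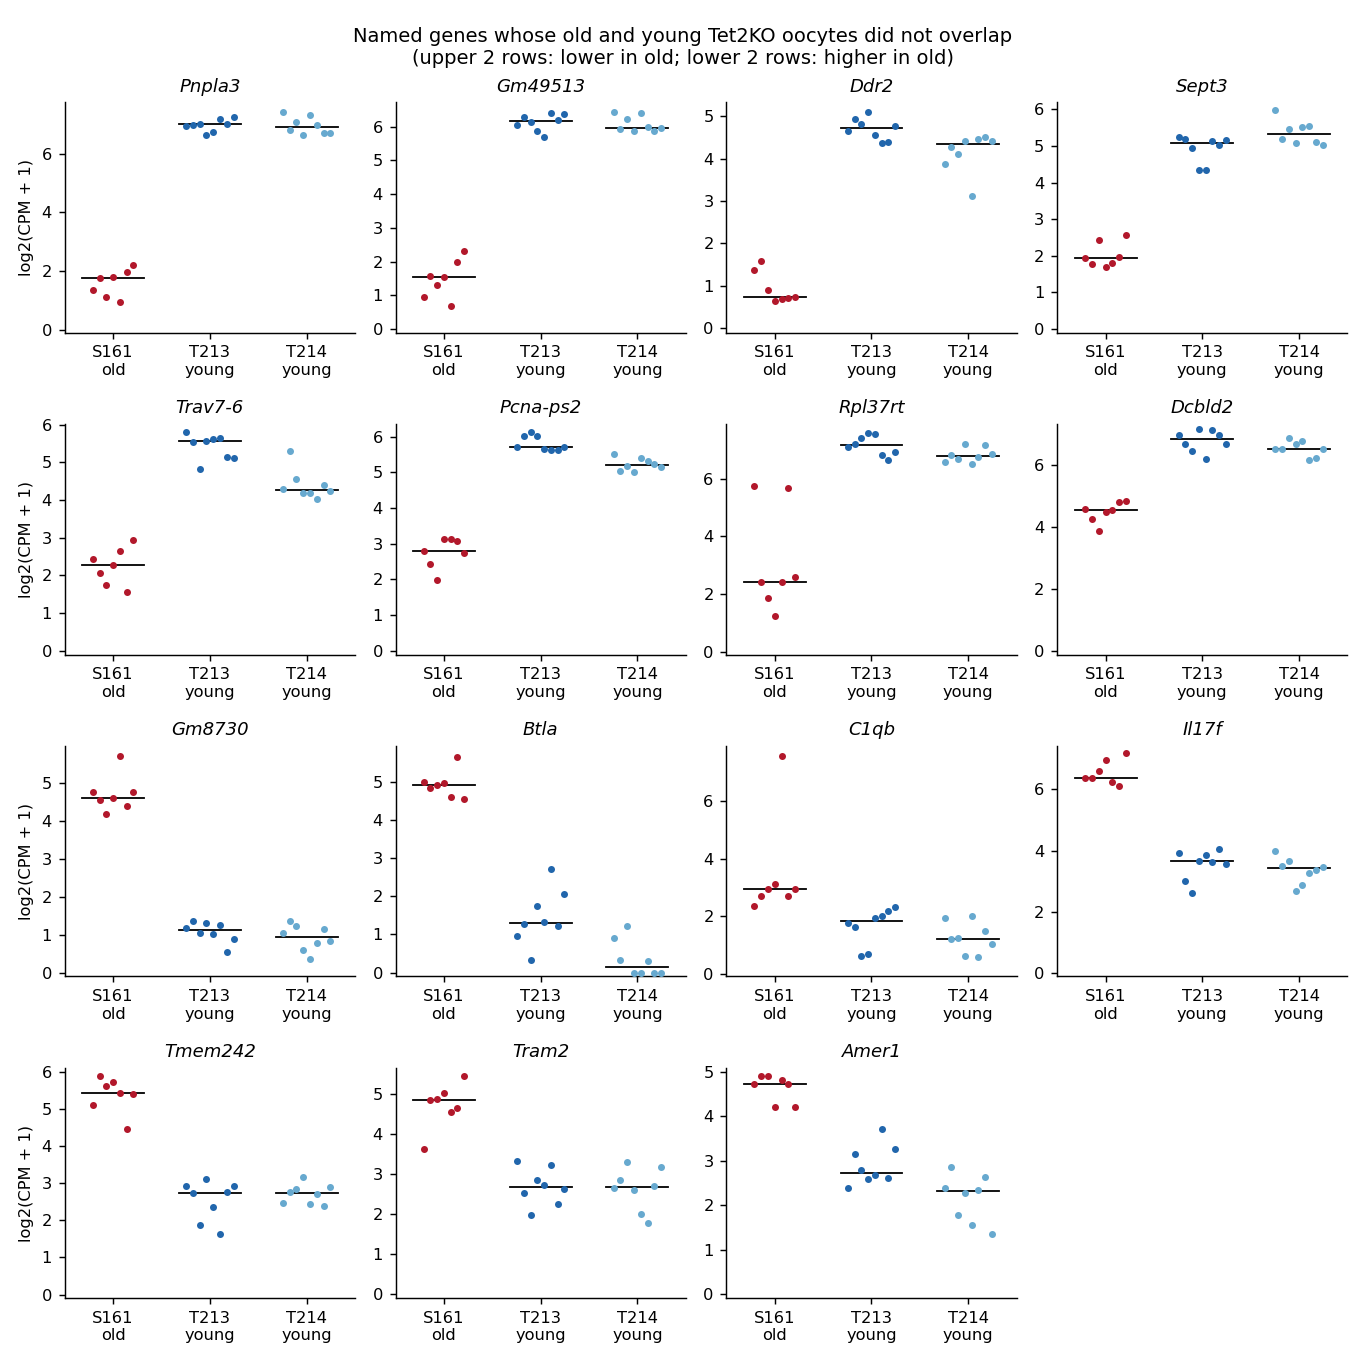
Level per oocyte, on a log2(CPM + 1) axis, of 15 named genes whose old and young Tet2KO oocytes did not overlap; each point is 1 oocyte and bars are set medians. The upper 2 rows are lower in old (Pnpla3 at 0.924 to 3.64 CPM in old and 98.2 to 171 CPM in young), and the lower 2 rows are higher in old (Btla at 22.5 to 49.3 CPM in old and 0 to 5.53 CPM in young).

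Set against the WT sets, the separated genes did not share 1 pattern. For the 41 genes higher in old, S161 lay within the range of the 6 WT sets for 26 genes and both young Tet2KO sets did for 24. In 8 genes S161 was within the WT range while both young sets were outside it, and in 11 the reverse held. For the 45 genes lower in old, S161 lay within the WT range for 30 genes and both young sets for 21, with 7 genes in each of the mixed cases.

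Many of the separated genes were neighbours on the genome. Of the 86, 25 (29.1%) had another of the 86 within 1 Mb that they did not overlap, against 8.65% of the 9211 genes measured. Both genes of an overlapping pair were counted where a different one of the 86 lay within 1 Mb. The 25 are thus not all separate observations. For the 304 genes separated between T213 and T214 the share was 40.8%, against 28.7% of the genes measured. With gaps of at most 2 Mb, 7 of the 86 lay between 78947724 and 84195881 on chromosome 15, where 66 genes were measured. These were Triobp, Tnrc6b, Sept3, Pnpla3 and Gm49513, lower in old, and Dmc1 and Slc25a17, higher in old. Another 5 lay between 169972307 and 171504750 on chromosome 1, among 24 genes measured. There Ddr2 was lower in old, and Gm9929, Dusp12, B930036N10Rik and Alyref2 were higher in old. Alyref2 and B930036N10Rik overlap each other, as do Dusp12 and Gm9929. The genes named in this paragraph were singled out by position after their values were seen.

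Of 26 functional gene lists, none had a member that passed in the edgeR test of old against young Tet2KO, so each list is given by its counts and median beside the 14418 genes tested. Over all genes tested, 6851 were above 0 and 7561 below 0, with a median log2 change of -0.02.

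The 13 mRNAs encoded by mitochondrial DNA, for subunits of the respiratory chain and ATP synthase, were all below 0, with a median log2 change of -0.65 and of -0.76 without S1616. mt-Nd1, a subunit of complex I, was at 1000 to 2225 CPM in old oocytes (median 1452) and 1433 to 3534 CPM in young oocytes (median 2504), with a log2 change of -0.77 (SE 0.28). mt-Co2, a subunit of cytochrome oxidase, was at 83.9 to 193 CPM in old and 123 to 429 CPM in young oocytes (log2 change -0.90, SE 0.35). mt-Atp8, a subunit of ATP synthase, had a median of 190 CPM in old and 333 CPM in young oocytes (log2 change -0.77, SE 0.31). The ranges of old and young oocytes overlapped for all 13, and each had an edgeR adjusted p of 1. The 13 genes are read from shared transcripts, so they are not independent. Together they took 0.705% to 1.39% of the counts in old oocytes (median 0.999%) and 1.04% to 2.44% in young oocytes (median 1.62%). By set the share was 1.02% in S161, against 1.69% in T213 and 1.48% in T214. In WT it was 1.09% ± 0.139 in old (SD, n = 2 sets) and 1.21% ± 0.203 in young (SD, n = 4 sets), and the highest WT set held 1.48%. T213 was thus above every WT set, T214 was beside the highest, and S161 was within the WT range. The Tet1KO sets held 0.805% and 0.503% in old and 1.12% and 0.542% in young females, so sets of 1 age and genotype also differed widely. Without S1616, the old oocyte with the highest share, S161 was at 0.961%, just below the lowest WT set at 0.994%.

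Of 21 members tested in the list of meiotic cohesin and its protection, which holds the rings that keep sister chromatids together and the shugoshins that shield them, 4 were above 0 and 17 below 0, with a median log2 change of -0.16 and of -0.14 without S1616. Smc1a, a ring subunit, was at 26.8 to 45.1 CPM in old oocytes (median 35.4) and 44.7 to 78.6 CPM in young oocytes (median 60.5), with a log2 change of -0.70 (SE 0.33). Of the old oocytes, S1615 alone reached the young range of Smc1a. By set, S161 (36.3 CPM) was within the WT sets for Smc1a (31.1 to 49.3 CPM), and T213 (54.7 CPM) and T214 (64.1 CPM) were above them. Sgo2b was at 6.95 to 20.9 CPM in old and 16.2 to 58.2 CPM in young oocytes (log2 change -1.16, SE 0.41). For Sgo2b, S161 (15.6 CPM) and T213 (27.7 CPM) were within the WT sets (14.9 to 27.8 CPM), and T214 was above them (42.8 CPM). The other shugoshins did not follow Sgo2b. Sgo1 was at 104 CPM in S161, against 96.7 CPM in T213 and 88.1 CPM in T214 (log2 change 0.18). Sgo2a was at 127 CPM in S161, between T213 at 119 CPM and T214 at 163 CPM (log2 change -0.13). Pds5a, a regulator of cohesin, was at 1.47 to 5.87 CPM in old and 1.78 to 10.6 CPM in young oocytes. The meiotic subunit Smc1b was at 22.7 CPM in S161, against 22.4 CPM in T213 and 33.5 CPM in T214, and Rec8 had no count in these libraries. Espl1, the protease separase that opens the ring, was at 60.1 to 145 CPM in old and 41.5 to 107 CPM in young oocytes.

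The spindle assembly checkpoint and kinetochore list had 15 of 32 tested members above 0 and a median of -0.02. Without S1616, 17 were above 0 and 15 below 0, with a median of 0.02. Bub3, a checkpoint protein, was at 103 to 206 CPM in old and 68.7 to 134 CPM in young oocytes (log2 change 0.71, SE 0.29). S1616 was the only old oocyte within the young range of Bub3. The kinetochore protein Cenpf was at 202 to 313 CPM in old and 255 to 561 CPM in young oocytes, and the checkpoint kinase Ttk at 52.8 to 76.5 CPM in old and 55.6 to 127 CPM in young oocytes. S161 was within the WT sets for Bub3 (160 CPM, WT 107 to 173 CPM) and Cenpf (253 CPM, WT 192 to 283 CPM). The same held for Ttk (62.85 CPM, WT 35.7 to 71 CPM). T213 and T214 lay below every WT set for Bub3, at 98.5 and 97.5 CPM. They lay above every WT set for Cenpf, at 342 and 387 CPM, and for Ttk, at 76 and 102 CPM. The 3 thus did not point one way, and each had an edgeR adjusted p of 1.

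The maternal-effect list had 11 of 21 members above 0 and a median of 0.06. Tle6, a member of the subcortical maternal complex, was at 94 to 622 CPM in old and 86 to 408 CPM in young oocytes (log2 change 1.07, SE 0.42), and S1616 was its lowest old oocyte. Ooep, another member of that complex, went the other way, at 330 to 492 CPM in old and 517 to 1197 CPM in young oocytes. The histone demethylase Kdm4a was at 5.87 to 21.6 CPM in old and 13.1 to 39.4 CPM in young oocytes. The chromatin insulator Ctcf was at 29.1 to 55.5 CPM in old and 39.3 to 76 CPM in young oocytes.

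Nuclear genes of the respiratory chain had 51 of 73 members above 0, with a median of 0.16 and of 0.08 without S1616. Ndufa8 was at 2.94 to 9.27 CPM in old and 1.68 to 5.15 CPM in young oocytes, and Ndufb9 at 2.84 to 9.24 CPM in old and 1.8 to 6.87 CPM in young oocytes; both are subunits of complex I. Antioxidant genes had 21 of 30 members above 0, with a median of 0.16 and of 0.12 without S1616. Txnrd1, a thioredoxin reductase, was at 77.7 to 147 CPM in old oocytes (median 131) and 30.4 to 83.7 CPM in young oocytes (median 58.9), with a log2 change of 0.99 (SE 0.32). Of the old oocytes, S1616 at 77.7 CPM and S1618 at 79.4 CPM fell within the young range. Gpx4, which detoxifies lipid peroxides, and catalase (Cat) had log2 changes of 0.97 and 1.32, and of 0.10 and 0.62 without S1616, where they stood at 18.8 and 8.94 CPM.

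Genes of maternal mRNA storage and decay had 26 of 44 members above 0 and a median of 0.03. The RNA helicase Ddx4 was at 18.5 to 54.8 CPM in old and 8.4 to 39.7 CPM in young oocytes (log2 change 1.14, SE 0.51). Ddx6, a helicase of mRNA storage granules, was at 3.39 to 9.27 CPM in old and 3.31 to 19 CPM in young oocytes, and the RNA-binding protein Msi2 at 0.398 to 4.13 CPM in old and 0 to 12.7 CPM in young oocytes. The TET and DNA methylation list had 10 of 23 members above 0, with a median of -0.07. Dnmt1, the maintenance methyltransferase, was at 153 to 259 CPM in old and 133 to 376 CPM in young oocytes. Zfp57, which protects methylation at imprinted loci, was at 474 to 568 CPM in old and 507 to 869 CPM in young oocytes, and the glycosyltransferase Ogt, a partner of TET proteins, at 53 to 97.9 CPM in old and 22.7 to 109 CPM in young oocytes.

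Cytosolic ribosomal protein genes changed side with S1616. Of 80 tested, 52 were above 0 with a median log2 change of 0.25, and without S1616 the median was -0.07. Their summed level was 2396 CPM in S1616, at most 1331 CPM in the other old oocytes and 1208 to 1932 CPM in young oocytes. Chaperone and unfolded protein response genes had 13 of 31 members above 0, with a median of -0.10 and of -0.08 without S1616. The medians of the other 16 lists lay between -0.07 and 0.15. Of these, the DNA damage response and repair list changed side, with a median of -0.02 and of 0.01 without S1616.

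Of 644 genes of the functional lists at 5 CPM or more, 4 had oocytes that were all higher in old (0.621%) and 7 all lower in old (1.09%), against 0.445% and 0.489% of all genes measured. They were singled out after their values were seen. The higher ones included the spindle midzone protein Prc1, the meiotic recombinase Dmc1 and the receptor Igf2r, which is imprinted. Prc1 was at 942 to 1097 CPM in old and 605 to 940 CPM in young oocytes. The 7 lower were Pnpla3, Rpl37, Ooep, the oocyte-secreted protein Oosp2, the centrosome protein Cep192, the co-chaperone Dnaja1 and the protein disulphide isomerase Pdia6. Oosp2 was at 138 to 174 CPM in old and 190 to 727 CPM in young oocytes, and Pdia6 at 50.2 to 87.2 CPM in old and 100 to 208 CPM in young oocytes.

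**Figure D5:**
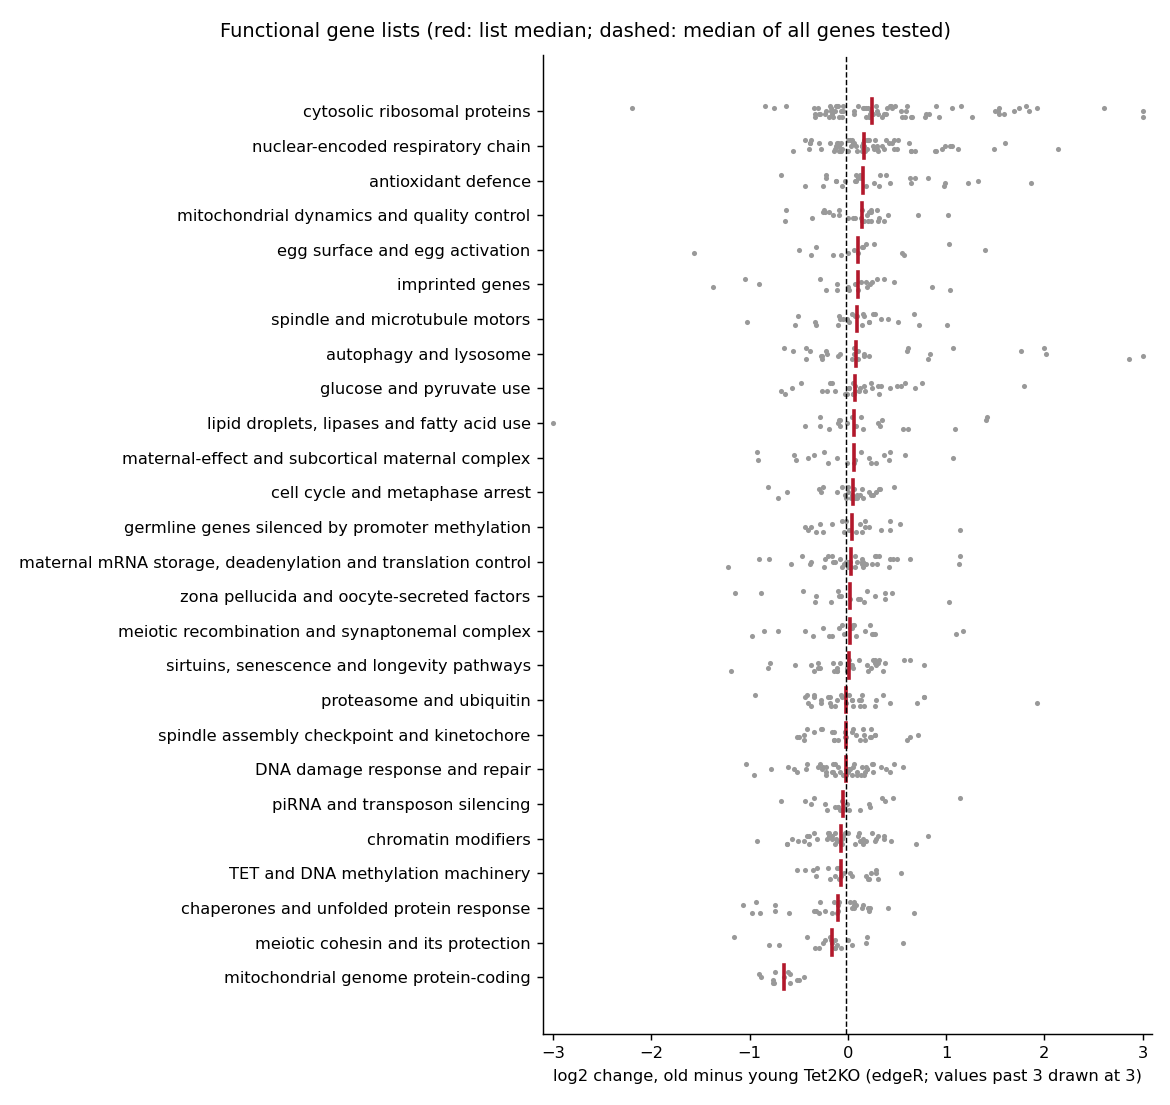
Log2 change, old minus young Tet2KO, of each tested member (grey points) of 26 functional gene lists, with the list median in red and the median of all 14418 genes tested as a dashed line at -0.02. The mitochondrial genome has the lowest median, -0.65, and all of its 13 members are below 0.

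Whether an age difference in Tet2KO differed from that in WT was tested as the difference of the 2 age contrasts in the same fit. No gene of 14418 passed in edgeR, with 758 at an unadjusted p under 0.05, and without S1616 none of 14401 passed, with 720 at an unadjusted p under 0.05. DESeq2 called 55 genes, and 26 without S1616, all of them among the 55. Fth1, C1qb, Ccl6, Cstb, Ctsb, Cxcl13, H2-Aa, Tmem176b and Tmsb4x were among the calls lost without S1616, and Pnpla3, Gm49513 and Tmem242 among those kept. Pnpla3 had a difference of -6.12 on the log2 scale (SE 0.93, edgeR adjusted p = 0.213), and one of -5.97 without S1616 (SE 0.91, edgeR adjusted p = 0.33). Fth1 had a difference of 3.24 (SE 0.42, edgeR adjusted p = 0.124), and of -0.29 without S1616 (SE 0.45, edgeR adjusted p = 0.975). For mt-Nd1 the difference was -1.11 (SE 0.37, edgeR adjusted p = 0.833). The WT contrast mixes sets from both naming series, and old WT holds only numbered sets, so it rests on the series term of the fit.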

How the data were processed

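Per the file headers, the authors deposited unnormalised gene counts from featureCounts 1.6.2 on the GENCODE vM17 annotation, with a mapping quality of at least 30 and without strand. The options were set to count multi-mapped reads, and reads of overlapping genes for each gene. How many multi-mapped reads met the limit on mapping quality is not known. HISAT2, SAMtools and mm10 appear in the submitters' processing notes. No column was used that matched no label (39 columns), and 39 samples without a column of their name were not analysed here. The authors' tables share 53715 genes. Members and gene lists were chosen with earlier results of these data known.

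Counts of oocytes with 1 title stem were summed to 13 sets and compared using edgeR 4.0.16 under R 4.3.3 (TMM, quasi-likelihood F test, group means plus naming series, CPM of at least 1 in at least 2 sets, 6 residual degrees of freedom, common biological coefficient of variation 0.319). The spread of the lone old Tet2KO set was taken to be that of the other sets, and p-values measure the spread between sets only. Each SE was derived from the log2 change and its F statistic. CPM per oocyte are on the library total. DESeq2 1.42.0 and limma 3.58.1 were alternatives. The fit was run on simulated data, and the share of changes it recovered is not reported here. A gene that did not pass is thus not shown to be unchanged. Genes named are Tet1, Tet2 and Tet3, all that passed, 3 members of smallest p in each of 8 lists, the 8 non-overlapping genes of largest ratio each way (1 is not reported here), and the 6 leukocyte markers highest in S1616; any other gene named was chosen after its values were seen.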

Additional observations from a re-analysis of the deposited data

Results flagged for a closer look

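Among the 7 old Tet2KO oocytes, 84 measures were tested for a sample far from the others (Dixon's criterion), and 17 passed, 16 of them through S1616. Chance flags about 1 in 20 groups, but the leukocyte sum, its 6 markers and Fth1 were chosen with their high level in S1616 known. Genes named for a small p or a large ratio, among them Gpx4, Cat, Ndufb10 and Gm8730, were picked from values that include S1616. For both reasons this tally is not set against that share. The old Tet2KO oocyte S1616 stood apart at 4.93 CPM for Tet2 (the next oocyte was at 1.32 CPM), 1280 CPM for Fth1 (39.6 CPM), 5.86 CPM for Ndufb10 (2.48 CPM), 18.8 CPM for Gpx4 (3.79 CPM) and 8.94 CPM for Cat (3.47 CPM). It also stood apart at 50.8 CPM for Gm8730 (26.2 CPM), 188 CPM for C1qb (7.71 CPM), 936 CPM for Lyz2 (14.6 CPM), 319 CPM for Cd74 (13.8 CPM), 255 CPM for Ctss (4.68 CPM), 136 CPM for Fcer1g (0.826 CPM) and 131 CPM for C1qc (3.58 CPM). Of summed lists, S1616 was far above the others for leukocyte and macrophage markers (2985 CPM, next 142 CPM), cytosolic ribosomal proteins (2396 CPM, next 1331 CPM) and autophagy and lysosome genes (2557 CPM, next 2010 CPM). It was far below them for spindle and microtubule motors (4328 CPM, next 4947 CPM). The remaining one is Btla, at 49.3 CPM in S1617 with the next old oocyte at 30.7 CPM.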

How the results depend on the processing

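The count of genes passing between old and young Tet2KO, 1 in the test on 13 sets, was 20 with DESeq2, 0 with limma on set means, 308 without a filter on low counts, 3 in the 7 sets of 1 table and 49 in the 3 Tet2KO sets alone. It was 0 without oocyte S1616, 0 without set T213 and 0 without set T214, and 1 to 1 when each other old oocyte was left out. In alternatives chosen after seeing the data, all without S1616, it was 2 in 1 table, 41 in the 3 Tet2KO sets, 108 without a filter, 8 with DESeq2, and 0 when S1615 was left out as well. All 8 DESeq2 calls without S1616 were among the 20 with it, and 33 of 41 calls in the 3 Tet2KO sets were among the 49. The difference of the age contrasts gave 0 genes, 55 with DESeq2 and, chosen after seeing the data, 26 with DESeq2 without S1616. The 86 genes with separated oocytes became 552 without T213 and 222 without T214. Of 45 named genes in the fit, 41 kept 1 direction. The log2 change of Fth1 was -0.055 without S1616. That of Tet2 was -0.92 without S1616, -0.32 with limma and -0.010 without T214. With single old oocytes left out, Tet1 ranged from -0.24 to 0.059 and Tet3 from -0.062 to 0.0015, and Tet3 was 0.12 without T213. Apart from the smaller numbers of samples or genes, the cause of these changes was not tested. The counts of genes passing are out of unlike numbers tested. These were 14418 on 13 sets, also with DESeq2 and limma, 33500 without a filter, 13793 in 1 table and 13014 in the 3 Tet2KO sets. In the fit on the 3 Tet2KO sets alone, the spread between sets was that of T213 against T214 only. No paired analysis was possible because the groups share no replicate numbers.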
